A study of Bos indicus with 11 samples.

Results

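Glucose and hexose transporters were examined in endometrial biopsies of beef cows. The genes were the 9 rows of the deposited table whose symbol was SLC2A1, SLC2A3, SLC2A4, SLC2A5, SLC2A8, SLC2A10, SLC2A12, SLC5A1 or SLC5A11, out of 24616 genes, of which 18919 had at least 1 read. All 11 cows were healthy multiparous Nelore cows (Bos indicus), synchronized with a prostaglandin analogue and inseminated at detected estrus. On day 6 after AI a biopsy was taken from the uterine horn opposite to the corpus luteum, and the cows were divided afterwards, by the diagnosis on day 30, into pregnant (P, n = 6) and non-pregnant (NP, n = 5). They had been chosen for similar plasma progesterone on the day of biopsy. The labels do not tell whether an embryo was present in an NP cow at biopsy. Each cow gave 1 RNA-Seq library and is 1 replicate.

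Sugar crosses cell membranes through 2 families of carriers. The SLC2A genes encode the GLUT proteins, which let hexoses move down their concentration gradient, and the SLC5A genes encode the SGLT proteins, which use the sodium gradient to move sugars uphill. Before implantation the bovine embryo lives on the secretions of the endometrium, the histotroph, which contain glucose and fructose that the uterine epithelium takes up or makes and releases.

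Between 9290949 and 13569085 reads were counted on genes per cow. The values are normalized counts, which are reads per gene divided by a size factor for each cow, and 1 read was worth 0.784 to 1.14 normalized counts. Because longer transcripts give more reads, levels were compared between cows and not between genes. Fold changes are NP over P on the log2(normalized count + 1) scale from limma, which tends to understate changes of genes with few counts. Epithelial, stromal, endothelial and immune marker genes were read in every biopsy, except that the B cell gene MS4A1 was at 0 in some. The biopsies differed in smooth muscle, whose 11 marker genes summed to 643880 normalized counts in cow P617, 476520 in P1541 and 268600 in NP638, and to 39515 to 190580 in the other cows. Not every marker of this list had that order. MYOCD was highest in P1753 at 660 and was 110 in P617, and LDB3, with few counts in any cow, was at 0 in P617. Epithelial markers were lowest in P617, at a sum of 2926, against 12080 to 32101 in the other cows. Stromal markers, as mean log2 values, were 12.76 to 14.01 in P cows and 13.79 to 14.10 in NP cows, endothelial markers 8.60 to 10.17 and 9.57 to 10.39, and immune markers 5.26 to 6.46 and 5.80 to 7.04. Their part in the results below was not tested. Some fits carry the smooth muscle or the epithelial markers as a covariate, but only the NP over P term was read from them. In a whole biopsy, fewer cells of a type and less RNA per cell cannot be told apart. The labels place P617 among the pregnant cows, whereas a supplementary list of the study names it as non-pregnant. Fold changes without P617 and P1541, the cows with the highest sums of smooth muscle markers, are therefore also given for the 8 transporters tested. For genes named from the 8 further lists they are given where they moved by over 1.5 times or turned.

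None of the transporters differed between P and NP cows past the threshold. Of the 9 genes, 8 had a mean of at least 5 normalized counts and were tested, and 0 of them had an adjusted p-value under 0.1 (limma, Benjamini-Hochberg adjustment over 15081 genes), where 0% of all genes passed. At an unadjusted p-value under 0.05 there were also 0 of the 8, against 7.84% of all genes tested. In edgeR's quasi-likelihood test and in DESeq2 0 of the 8 passed the adjusted threshold as well, where DESeq2 called 1.33% of all genes and gave 1 of the 8, SLC2A1, an unadjusted p-value under 0.05, as it did 9.75% of all genes. The groups overlapped in each of the 9 genes, while 1.09% of the genes tested had groups that were apart. Of the 8 genes, 4 had a higher and 4 a lower mean log2 value in NP cows, with a median log2 fold change of 0.06 beside 0.0018 over all genes tested. With a marker score as a covariate, the number of transporters at an unadjusted p-value under 0.05 was 1 for smooth muscle, against 5.25% of all genes, and 2 for epithelium, against 12.4%, and with the epithelial score 0 of the 8 and 0.849% of all genes passed the adjusted threshold. The genes differed much more in how widely cows of the same group were spread.

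**Figure D1:**
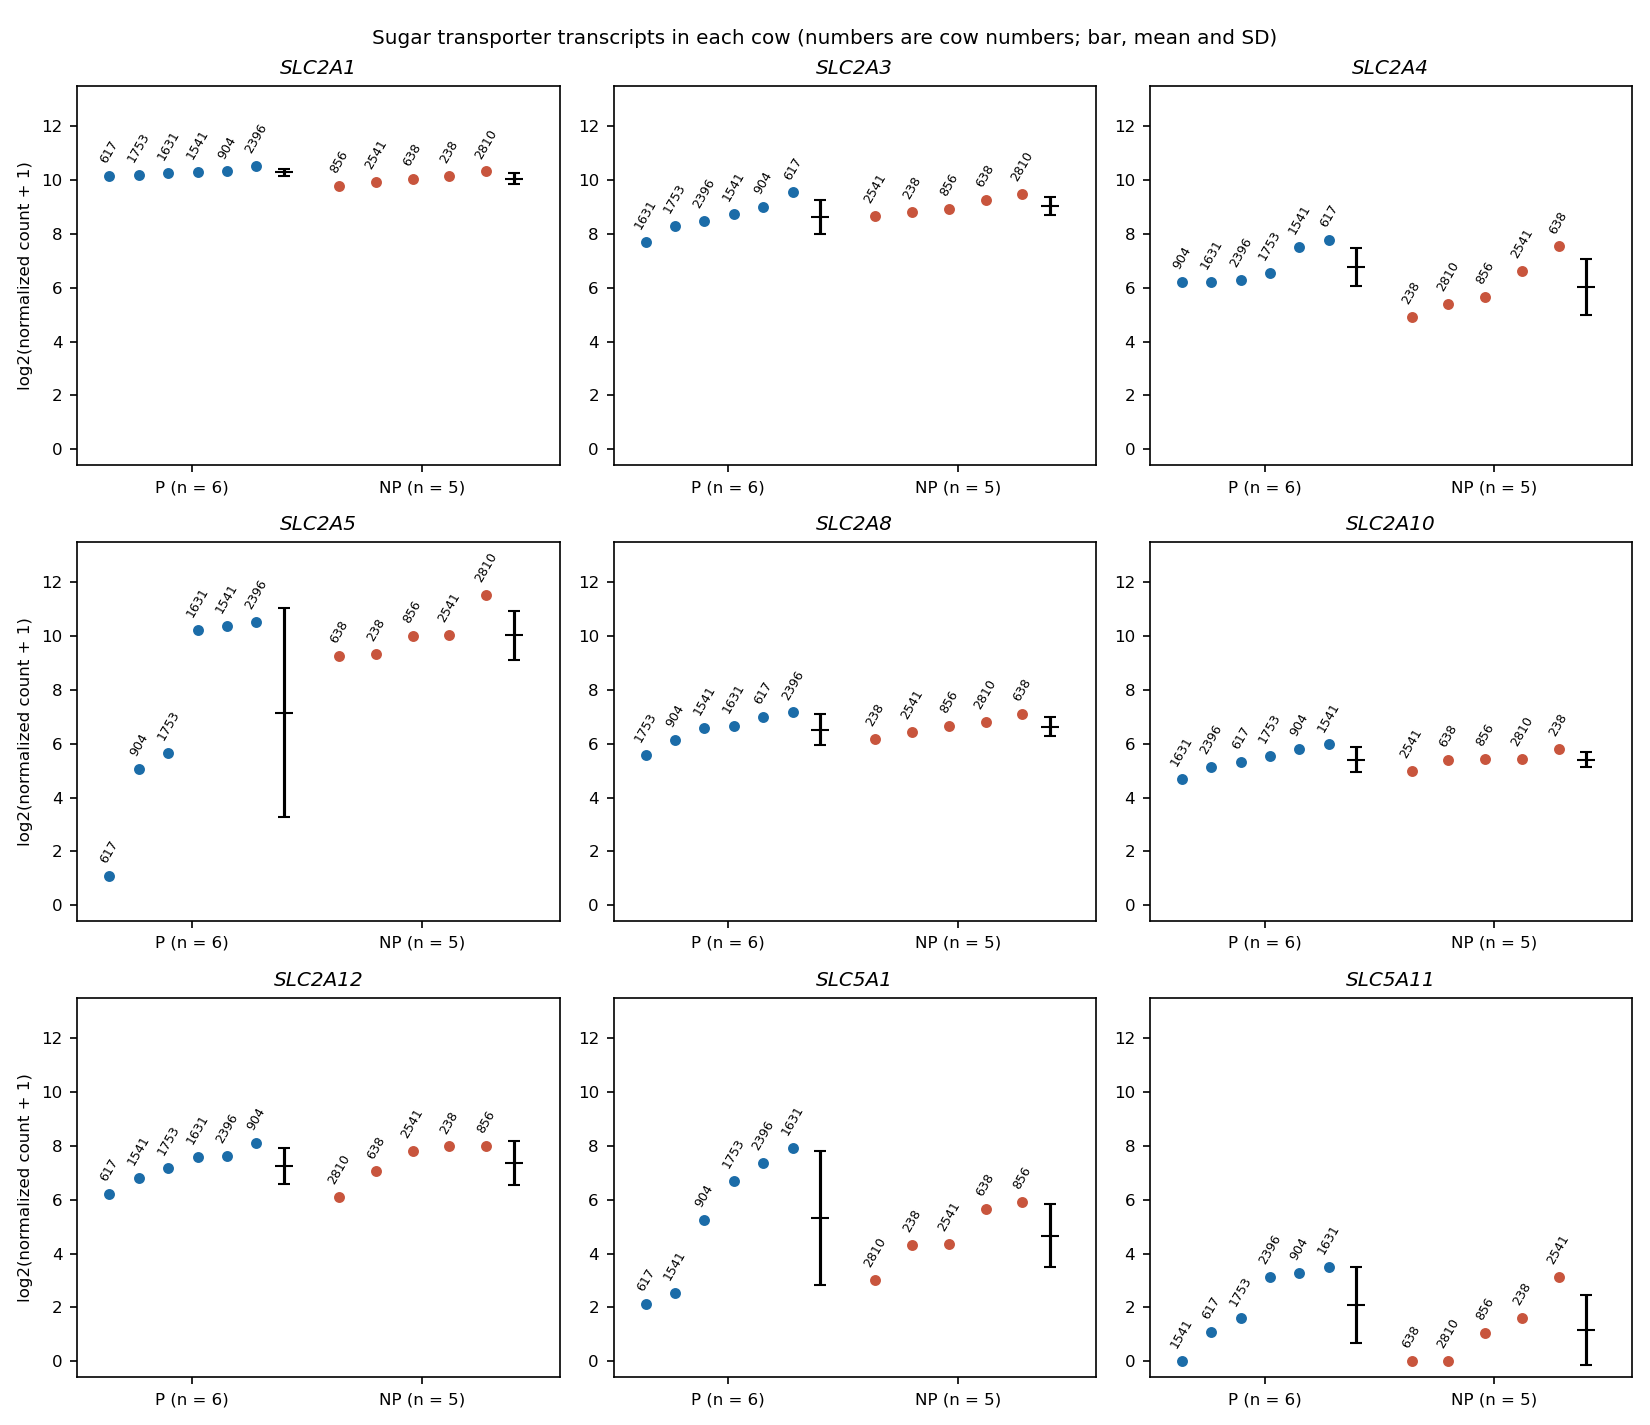
Normalized counts of the 9 transporters in each cow on the log2(normalized count + 1) scale, with P cows in blue and NP cows in red, cow numbers above the points, and the mean and SD of each group as black bars. SLC2A1 lies in a narrow band in all 11 cows, whereas SLC2A5 runs from 1.13 to 1479 normalized counts among P cows and SLC5A1 from 3.39 to 244.

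SLC2A1 (ENSBTAG00000009617) encodes GLUT1, the carrier for basal glucose uptake in most cells. In P cows it ranged from 1139 to 1464 normalized counts with a median of 1242. The NP cows were at 886 in NP856, 988 in NP2541, 1050 in NP638, 1137 in NP238 and 1282 in NP2810. All NP cows except NP2810 lay below the lowest P cow, but NP238 at 1137 was almost level with that cow. The lowest P cow was P617 at 1139, the cow whose group differs between the labels and the supplementary list. The P mean was 1256 ± 115 (SD, n = 6) and the NP mean 1069 ± 150 (SD, n = 5). The log2 fold change was -0.24 with a 95% interval from -0.48 to 0.0041 and an adjusted p-value of 0.645 in limma. Its unadjusted p-value lay on either side of 0.05 by method, at 0.0534 in limma and 0.0455 in a two-sided exact permutation test, in which the cows can be split in 462 ways. Leaving out 1 cow at a time gave log2 fold changes from -0.31 without NP2810 to -0.17 without NP856 (limma, unadjusted p = 0.0147 and 0.147), and leaving out P617 and P1541 gave -0.27 (unadjusted p = 0.0494). With the smooth muscle score as a covariate it was -0.30 (limma, unadjusted p = 0.0404, adjusted p = 0.939). The epithelial score as a covariate gave -0.25 (limma, unadjusted p = 0.0379, adjusted p = 0.368). SLC2A1 was also among the steadier transcripts of the biopsy, since 85.4% of the genes tested had a larger SD of log2 values over the 11 cows.

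SLC2A3 encodes GLUT3, a carrier with high affinity for glucose that is typical of neurons and trophoblast. The gene (ENSBTAG00000004556) had 209 to 746 normalized counts in P cows with a median of 391. The NP cows were at 403 in NP2541, 451 in NP238, 493 in NP856, 618 in NP638 and 709 in NP2810. Every NP cow was above the P median, but the highest value of all belonged to cow P617. The P mean was 429 ± 187 (SD, n = 6) and the NP mean 535 ± 126 (SD, n = 5), a log2 fold change of 0.40 with a 95% interval from -0.23 to 1.02 (limma, adjusted p = 0.791). Leaving out 1 cow at a time gave 0.22 without P1631 to 0.58 without P617 (limma, unadjusted p = 0.394 and 0.0329), and without P617 and P1541 it was 0.65 (adjusted p = 0.373). P617, highest in SLC2A3, had the lowest epithelial score at 6.88, and P1631, lowest in SLC2A3, the highest at 10.50. With the epithelial score as a covariate the log2 fold change of SLC2A3 was 0.49 (limma, unadjusted p = 0.0220, adjusted p = 0.308). The part of the epithelium in SLC2A3 was not tested.

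The number of SLC2A3 counts for each 100 counts of SLC2A1 in the same cow does not depend on the scaling between libraries. It was 39.7 to 58.8 in NP cows with a median of 55.3 and 17.1 to 65.5 in P cows with a median of 30.5. Apart from P617 at 65.5, the highest P cow was P904 at 40.4, which lay above NP238 at 39.7 and below the other NP cows. This ratio was chosen after the values had been seen and was not tested.

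SLC2A5 (ENSBTAG00000034323) encodes GLUT5, the fructose carrier. It had 1.13 normalized counts, a single read, in P617, 32.6 in P904 and 49.3 in P1753. In the other P cows it had 1207 in P1631, 1347 in P1541 and 1479 in P2396. The NP cows lay at 609 in NP638, 642 in NP238, 1033 in NP856, 1057 in NP2541 and 2937 in NP2810. The 3 lowest cows were thus all P cows, with no cow between 49.3 and 609, and the rest of the P cows lay within the range of the NP cows.

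The spread of SLC2A5 over cows was among the widest in the table, and 0.0464% of the genes tested had a larger SD of log2 values. The P mean was 686 ± 727 (SD, n = 6) and the NP mean 1256 ± 963 (SD, n = 5). The log2 fold change of 2.87 had a 95% interval from -0.57 to 6.31 (limma, adjusted p = 0.730, two-sided exact permutation test, p = 0.152). Its size depended on the method and on single cows, as it was 0.87 in DESeq2, which compares mean counts, and in limma 1.65 without P617, 3.54 without P2396 and 2.16 without P617 and P1541. In the 3 cows low in SLC2A5, the mean log2 of the 15 epithelial markers was 6.88 in P617, 9.66 in P904 and 9.76 in P1753. It was 9.12 to 9.60 in NP cows. Cow P1541, with the second lowest epithelial score at 8.86, had 1347 normalized counts of SLC2A5. With the epithelial score as a covariate the log2 fold change of SLC2A5 was 2.39 (limma, unadjusted p = 0.0572, adjusted p = 0.421). The part of the epithelium in SLC2A5 was not tested.

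SLC5A1 (ENSBTAG00000012851) encodes SGLT1, which takes up glucose and galactose with sodium at the apical side of epithelia. In P cows it had 3.39 normalized counts in P617, 4.84 in P1541, 37.4 in P904, 103 in P1753, 165 in P2396 and 244 in P1631. The NP cows were at 7.14 in NP2810, 19.2 in NP238, 19.6 in NP2541, 49.7 in NP638 and 60.2 in NP856. The P cows thus held the 3 highest and the 2 lowest values, and every NP cow was below the P median of 70.0.

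For SLC5A1 the P mean was 92.9 ± 97.0 (SD, n = 6) and the NP mean 31.2 ± 22.6 (SD, n = 5), and the log2 fold change was -0.66 with a 95% interval from -3.03 to 1.72 (limma, adjusted p = 0.901, two-sided exact permutation test, p = 0.593). It was -1.58 in DESeq2 (adjusted p = 0.604). The 2 lowest cows were those with the highest sums of smooth muscle markers. Without P617 and P1541 the P mean was 137 ± 88.3 (SD, n = 4) and the log2 fold change -2.15, with a 95% interval from -3.64 to -0.66 (limma, unadjusted p = 0.00905, adjusted p = 0.267). In that fit 3 of the 8 transporters, SLC5A1, SLC2A3 and SLC2A1, had an unadjusted p-value under 0.05, against 11.1% of all genes tested, and 0 passed the adjusted threshold, as 0.113% of all genes did. Leaving out 1 cow at a time gave -1.30 without P617 to -0.14 without P1631. With NP638 left out beside P617 and P1541 it was -2.40 (limma, unadjusted p = 0.00683, adjusted p = 0.306). With the smooth muscle markers as a covariate and all cows it was -1.46. The 95% interval of that fit ran from -4.16 to 1.24 (limma, unadjusted p = 0.260). The cows with the highest epithelial scores, P1631 at 10.50, P2396 at 9.88 and P1753 at 9.76, were also those with the most SLC5A1, and with the epithelial score as a covariate the log2 fold change was -1.02 (limma, unadjusted p = 0.181). Within the NP cows, the epithelial score was 9.12 to 9.60 and SLC5A1 was 7.14 to 60.2, the lowest value resting on 7 reads in NP2810. The part of the epithelium in SLC5A1 was not tested.

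**Figure D2:**
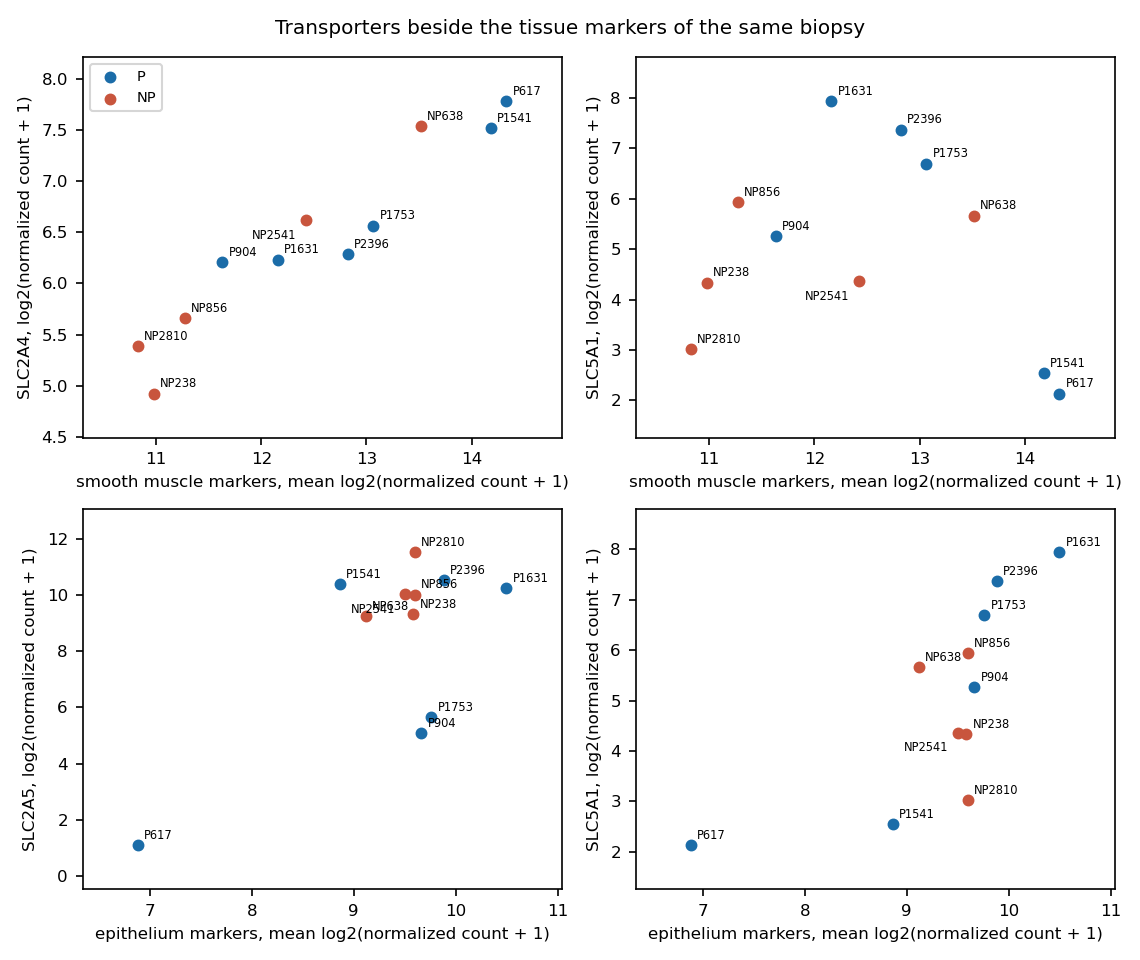
Log2(normalized count + 1) of SLC2A4, SLC5A1 and SLC2A5 on the vertical axes against the mean log2(normalized count + 1) of smooth muscle or epithelial marker genes in the same biopsy, 1 point per cow with P in blue and NP in red. SLC2A4 is highest in P617, NP638 and P1541, the 3 cows with the highest smooth muscle markers. SLC2A5 is low in P617, P904 and P1753, at epithelial scores of 6.88, 9.66 and 9.76.

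SLC5A11 (ENSBTAG00000003467) encodes a sodium-coupled carrier whose main cargo is myo-inositol. It had 0 to 10 reads per cow and a mean of 3.71 normalized counts, below the minimum for testing. In P cows it ranged from 0 to 10.3 normalized counts with a median of 4.94. In NP cows it was 0 in NP638 and NP2810, 1.08 in NP856, 2.02 in NP238 and 7.84 in NP2541. The P mean was 4.99 ± 4.43 (SD, n = 6) and the NP mean 2.19 ± 3.27 (SD, n = 5), with p = 0.271 in a two-sided exact permutation test. Without a filter on low values the log2 fold change was -0.94 (limma, unadjusted p = 0.234). A value of 0 in a library allows up to 3 reads.

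SLC2A4 (ENSBTAG00000009190) encodes GLUT4, the carrier of muscle and fat that insulin brings to the cell surface. In P cows it had 72.8 to 219 normalized counts with a median of 85.3. In NP cows it had 29.3 in NP238, 40.8 in NP2810, 49.5 in NP856, 97.2 in NP2541 and 185 in NP638. The 3 highest cows, P617 at 219, NP638 at 185 and P1541 at 182, were the 3 with the most smooth muscle markers, and the 3 lowest were the 3 with the least. The P mean was 120 ± 64.1 (SD, n = 6) and the NP mean 80.3 ± 63.8 (SD, n = 5), with a log2 fold change of -0.74 and a 95% interval from -1.80 to 0.32 (limma, adjusted p = 0.770). Leaving out 1 cow at a time gave -1.12 without NP638 to -0.47 without NP238 (limma, unadjusted p = 0.0245 and 0.356), and without P617 and P1541 it was -0.30 (unadjusted p = 0.542). With the smooth muscle markers as a covariate and all cows the direction was the opposite, at 0.17 with a 95% interval from -0.37 to 0.72. Of the 6 fat cell markers matched, 3 had a mean of at least 5 normalized counts, and the 6 summed to 118 to 212 in P cows and 138 to 224 in NP cows, most of it from LIPE. LEP was at 0 in every cow. ADIPOQ was at 10.2 in P617, 6.78 in P1541 and 4.06 in NP638, the 3 cows highest in SLC2A4, and at 0 in the others. The fat cell markers with more counts had other orders. FABP4 was highest in P1753 at 61.4, followed by P1541, and was 44.7 in NP2541, 21.3 in NP638 and 13.6 in P617. PLIN1 was highest in NP2541 at 56.5, and was 33.9 in P617 and 26.4 in NP638. LIPE was highest in NP2810 at 179. The part of fat cells in SLC2A4 was not tested.

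SLC2A12 (ENSBTAG00000019002) encodes GLUT12, another carrier described in muscle and fat. Its values did not follow those of SLC2A4. P cows had 73.4 to 278 normalized counts with a median of 168, with P617 lowest and P904 highest. NP cows had 67.3 in NP2810, 132 in NP638, 222 in NP2541, 252 in NP238 and 253 in NP856. The log2 fold change was 0.12 with a 95% interval from -0.77 to 1.02 (limma, adjusted p = 0.954), and it was -0.25 without P617 and P1541.

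SLC2A8 and SLC2A10 encode GLUT8 and GLUT10, which reside mostly on membranes inside the cell. SLC2A8 (ENSBTAG00000006957) had 47.3 to 143 normalized counts in P cows with a median of 97.7. In NP cows it had 71.8 in NP238, 85.5 in NP2541, 100.02 in NP856, 111 in NP2810 and 137 in NP638, all within the range of the P cows. Its log2 fold change was 0.12 with a 95% interval from -0.52 to 0.76 (limma, adjusted p = 0.935), and it was 0.25 without P617 and P1541. SLC2A10 (ENSBTAG00000002942) had 25.1 to 61.9 normalized counts in P cows with a median of 42.4. The NP cows were at 30.6 in NP2541, 41.6 in NP638, 41.9 in NP856, 42.8 in NP2810 and 54.6 in NP238. The mean log2 values of the groups were alike, with a log2 fold change of -0.0011, but the 95% interval from -0.59 to 0.59 leaves room for a difference of about 1.51-fold in either direction (limma, adjusted p = 0.999), and it was 0.12 without P617 and P1541.

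**Figure D3:**
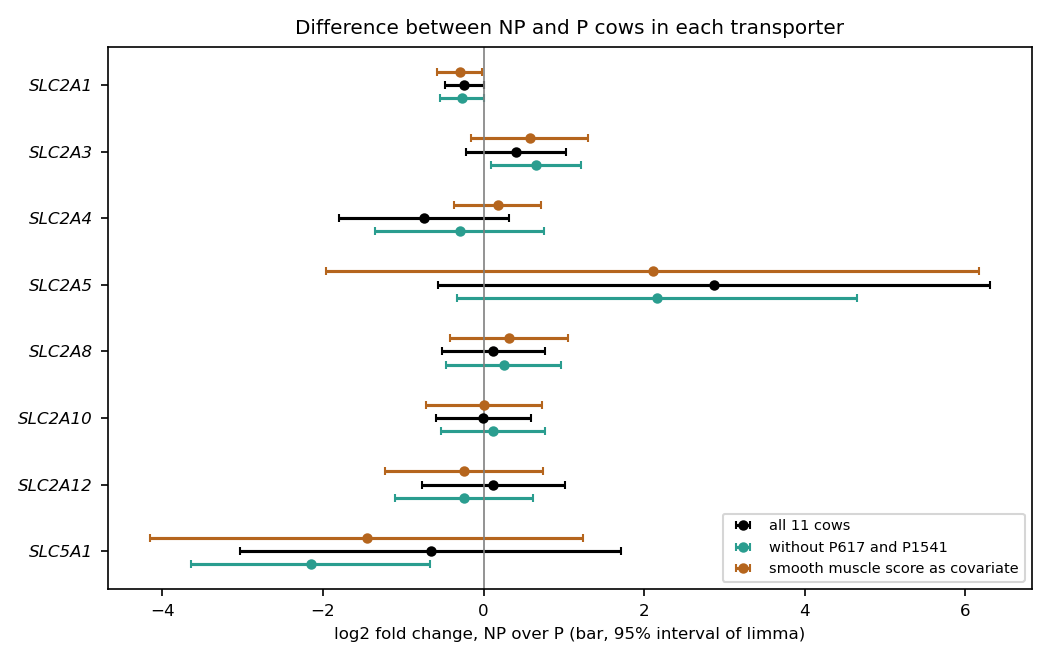
Log2 fold changes (NP over P) of the 8 transporters tested, with 95% intervals from limma, for all 11 cows in black, without P617 and P1541 in green, and with the smooth muscle marker score as a covariate in brown. With all cows every interval includes 0, and the intervals of SLC2A5 and SLC5A1 are the widest.

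For each transporter the genes with the most similar pattern were found by the mean absolute difference of standardised log2 values over the 11 cows, where the median over all genes was 1.046 to 1.115 SD for the 8 transporters. The closest match of all was between SLC2A4 and PRKG1, the cGMP-dependent kinase of smooth muscle, at 0.134 SD, followed for SLC2A4 by CCL11 at 0.167 and DISP1 at 0.169. PRKG1 had 211 normalized counts in P617, 214 in P1541 and 201 in NP638, and 29.3 to 107 in the other cows. SLC5A1 was closest to HIC2 at 0.180 SD, TECPR2 at 0.229 and JUP at 0.234, the last of which encodes the junction protein plakoglobin. For SLC2A12 the nearest genes were PHF8, ZC3H12C and PEX26 at 0.271 to 0.289 SD, and for SLC2A3 SNX18, ABHD8 and SH3KBP1 at 0.267 to 0.283. The matches were looser for SLC2A5, with ZNF33B at 0.316, KCNH8 at 0.325 and KCNMB4 at 0.362 SD. KCNH8 had 2.26 to 35.0 normalized counts over the cows, a far smaller range than SLC2A5. SLC2A10 was nearest to MSH3, ATRNL1 and TSPAN6 at 0.348 to 0.441 SD. SLC2A1 was nearest to PNMA1, TRPM8 and LGALSL at 0.383 to 0.400 and SLC2A8 to SPAM1, ZFP2 and POPDC2 at 0.405 to 0.468. These distances describe 11 libraries that differ in muscle and epithelium, and say nothing of a shared function.

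The genes around sugar transport were compared in 8 further lists, of which 91 genes were matched by symbol and 86 tested. In limma 0 of the 86 were called, and 7 had an unadjusted p-value under 0.05 with higher and 4 with lower expression in NP cows, where 5.49% and 2.35% of all genes did so. The median log2 fold change was 0.0034. DESeq2 called 2 of the 86, beside 1.33% of all genes.

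Among 10 other sugar carriers tested, 5 had a higher mean log2 value in NP cows, and the unadjusted p-value was under 0.05 for 1. This was SLC2A9, known as a urate carrier, with an NP mean of 24.7 ± 6.05 (SD, n = 5) and a P mean of 9.67 ± 7.94 (SD, n = 6) in normalized counts, a log2 fold change of 1.63 (limma, adjusted p = 0.459). Its lowest values were in P1541 and P617, and without them the log2 fold change was 0.93. SLC5A2, the SGLT2 gene known from the kidney, had a P mean of 245 ± 40.7 (SD, n = 6) and an NP mean of 201 ± 23.5 (SD, n = 5) in normalized counts (log2 fold change -0.27, limma, adjusted p = 0.720). SLC45A1, a sugar carrier first described in brain, had a log2 fold change of 1.04 (limma, adjusted p = 0.738) at a mean of 5.90 normalized counts in P cows.

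For SGLT1 the driving force comes from the sodium pump. ATP1B1, its beta subunit in epithelia, had a log2 fold change of -0.15 and ATP1B3 of 0.37, with adjusted p-values of 0.901 and 0.738 in limma. Of the 9 genes tested in this list, 5 were higher in NP cows.

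Once inside the cell, glucose is phosphorylated and either broken down, stored or turned into fructose. In the list of hexose phosphorylation and glycolysis 15 of 24 genes had a higher mean log2 value in NP cows, and the unadjusted p-value was under 0.05 for 2. These were ADPGK, an ADP-dependent glucokinase, with a log2 fold change of 0.39, and the enolase ENO2 with 1.56 (limma, adjusted p = 0.522 and 0.637), and the latter was 0.59 without P617 and P1541. PFKFB4, which makes a regulator of glycolysis, had a log2 fold change of 0.57 (limma, adjusted p = 0.662). The hexokinases HK1 and HK2 had log2 fold changes of -0.10 and -0.65, and HK2 ranged from 22.6 to 399 normalized counts in P cows and from 28.5 to 196 in NP cows.

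Of the 7 genes of the polyol and fructose route, 2 had a higher mean log2 value in NP cows. SORD, the sorbitol dehydrogenase that makes fructose, had a P mean of 152 ± 43.6 (SD, n = 6) and an NP mean of 97.8 ± 26.4 (SD, n = 5) in normalized counts, a log2 fold change of -0.61 (limma, unadjusted p = 0.0340, adjusted p = 0.582). AKR1B1, the aldose reductase of the step before, had a P mean of 3530 ± 2736 (SD, n = 6) and an NP mean of 3650 ± 1478 (SD, n = 5) in normalized counts. DAK, a kinase of dihydroxyacetone and glyceraldehyde, had a log2 fold change of 0.31 (limma, adjusted p = 0.819). In glycogen storage and use, 10 of 13 genes had a lower mean log2 value in NP cows, with a median log2 fold change of -0.10, and 0 had an unadjusted p-value under 0.05. PPP1R3C, which directs a phosphatase to glycogen, was highest in the cows rich in smooth muscle, with 4688 normalized counts in P617, 2558 in P1541 and 1233 in NP638 against 204 to 973 in the others, and had a log2 fold change of -1.31 (limma, adjusted p = 0.710), or -0.44 without P617 and P1541. The phosphorylase PYGB had a log2 fold change of 0.16 (limma, adjusted p = 0.796).

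In the list of lactate and pyruvate carriers 4 of 5 genes had a higher mean log2 value in NP cows. SLC16A3, which exports lactate, had an NP mean of 136 ± 54.4 (SD, n = 5) and a P mean of 82.6 ± 29.3 (SD, n = 6) in normalized counts, a log2 fold change of 0.69 (limma, unadjusted p = 0.0398, adjusted p = 0.604). SLC16A7 and EMB had log2 fold changes of -0.56 and 0.54, and SLC16A1 of 0.08. In the list on traffic and control of glucose transporters 7 of 15 genes had a higher mean log2 value in NP cows and the median log2 fold change was -0.00028. INSR, the insulin receptor, had an NP mean of 908 ± 184 (SD, n = 5) and a P mean of 636 ± 102 (SD, n = 6) in normalized counts, a log2 fold change of 0.50 (limma, unadjusted p = 0.00933, adjusted p = 0.434). TBC1D1, which restrains the movement of GLUT4 to the surface, had a log2 fold change of -0.62 (limma, adjusted p = 0.614) and was highest in P617 and P1541. TXNIP, an inhibitor of glucose uptake that is induced by glucose, had a P mean of 13373 ± 1918 (SD, n = 6) and an NP mean of 17737 ± 4854 (SD, n = 5) in normalized counts (log2 fold change 0.37, limma, adjusted p = 0.738). MLXIPL, a transcription factor activated by glucose, had a log2 fold change of 0.84 (limma, adjusted p = 0.738).

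In inositol handling 3 genes were tested. ISYNA1, the enzyme of inositol synthesis, had a log2 fold change of 0.72, and IMPA1, which frees inositol from its phosphate, of -0.32 (limma, unadjusted p = 0.0154 and 0.0181, smallest adjusted p = 0.485).

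Without P617 and P1541 several other fold changes of the named genes were different. On the log2 scale the sign turned for HK1 at 0.06, AKR1B1 at -0.32, EMB at -0.11 and DAK at -0.0029. Values nearer to 0 were found for SLC5A2 at -0.18, SLC45A1 at 0.58, TBC1D1 at -0.26, MLXIPL at 0.55, ATP1B3 at 0.21 and IMPA1 at -0.21. Values farther from 0 were found for HK2 at -1.19, SLC16A1 at 0.61 and ATP1B1 at -0.42.

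**Figure D4:**
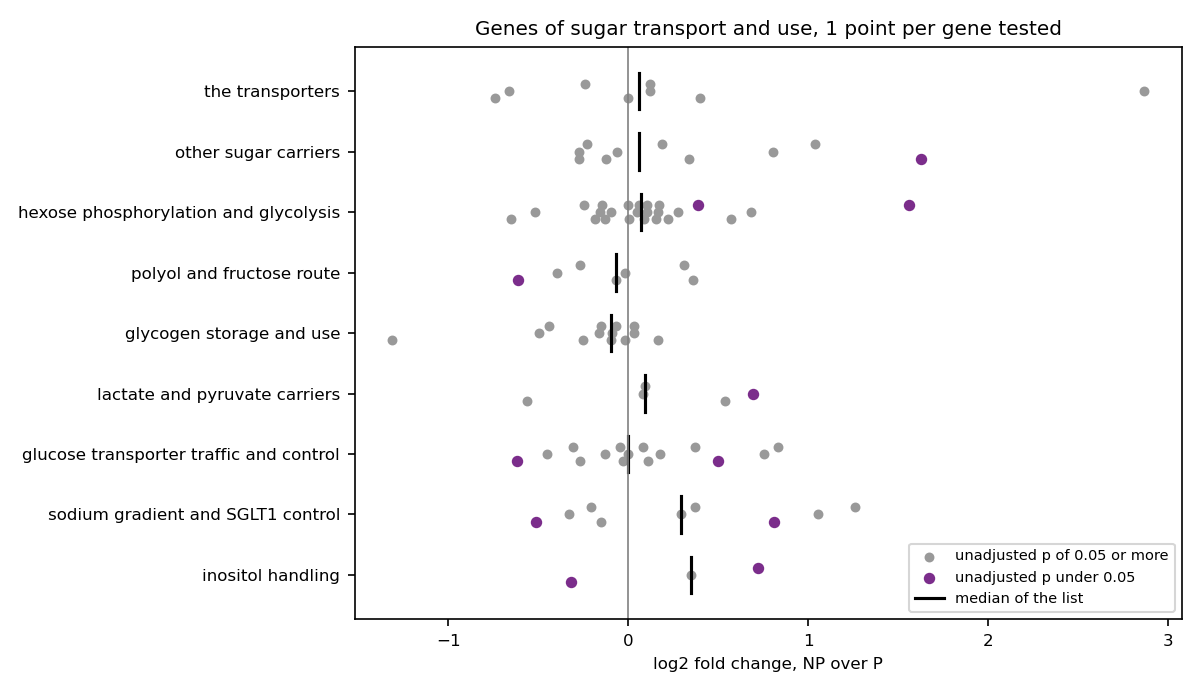
Log2 fold changes (NP over P) of the genes tested in the transporter group and in 8 lists of sugar transport and use, 1 point per gene, with genes at an unadjusted p-value under 0.05 in limma in purple and the median of each list as a black line. Medians lie between -0.10 and 0.35, and 0 genes passed the adjusted threshold in limma.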

How the data were processed

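RNA-Seq was performed by the authors on endometrial biopsies of 6 cows a group, and 1 NP cow was left out by them for a problem in sequencing, so that 6 P and 5 NP cows are analysed. Per the labels and the methods, reads were filtered with Seqyclean, mapped in local mode with Bowtie2 2.1.0 to the masked UMD3.1 assembly, counted per gene with HTSeq and divided by DESeq2 size factors. The authors deposited these normalized counts in 1 table, here treated as a signal of at least 0. The gene annotation and the use of strand are not given in the sources used here, so genes that overlap others or have near copies are uncertain. In each cow the values were whole multiples of 1 read (100% of values within a tolerance of 0.001 read, widened in proportion for large counts), and reads were recovered for count tests.

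Groups were taken from the labels, which give no batch. The main test was limma 3.58.1 (trend) in R 4.3.3 on log2(value + 1), with genes of a mean of at least 5 tested and the Benjamini-Hochberg adjustment at 0.1. Single transporters were also compared with two-sided exact permutation tests, whose smallest p-value is 0.00216. edgeR 4.0.16, DESeq2 1.42.0 without a prior, limma-voom, other scalings, filters, pseudocounts, covariates and leaving out cows were alternatives. Tests were also run on simulated data with independent genes and no difference in muscle or epithelium between cows. That simulation cannot show how the tests behave in these biopsies, which differ in both.

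The genes named are the 9 transporters, the 3 genes most like each, and from each list the leading 3 by p-value (2 in lists of under 8 genes) and a few set by role. The transporters, lists and markers were chosen with earlier results of these data known. Levels between genes, sequences and coordinates are not given, since no sequence or annotation of the build was used here. Some genes that the rule names are not reported here.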

Additional observations from a re-analysis of the deposited data

Results flagged for a closer look

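In 18 groups (9 transporters in P and in NP cows) the highest and the lowest cow were compared with the nearest other cow of their group. Chance alone would mark about 1 group in 20 if the values were normally distributed. The gaps were taken on normalized counts, which are skewed and can pass the limit more often. Log2 values were not screened. Cow NP2810 stood apart from the other NP cows in SLC2A5, at 2937 normalized counts with the next cow at 1057, a gap of 0.807 of the range of the group against a limit of 0.710. Cow NP2541 stood apart in SLC5A11, at 7.84 normalized counts with the next cow at 2.02 and a gap of 0.742 of the range, which rests on 10 reads.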

How the results depend on the processing

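None of the 8 transporters passed the adjusted threshold in any of the 26 alternative fits, the lowest adjusted p-value being 0.267. SLC2A1, SLC2A3, SLC2A5 and SLC5A1 kept their direction in all fits in which they were tested. SLC2A4 was at 0.17 with the smooth muscle covariate. SLC2A12 was at -0.25 without P617 and P1541, -0.16 without P617, P1541 and NP638 and -0.24 with the smooth muscle covariate. SLC2A10, near 0 throughout, was at 0.0108 with TMM and 0.0175 with upper quartile scaling, 0.12 without P617 and P1541 as without P617, P1541 and NP638, 0.0056 with the smooth muscle and 0.0214 with the epithelial covariate. Leaving out cows singly, log2 fold changes ranged from -0.0659 to 0.25 for SLC2A8, from -0.14 to 0.11 for SLC2A10 and from -0.0856 to 0.45 for SLC2A12, and the number of transporters at an unadjusted p-value under 0.05 ranged from 0 to 2 (the 2 without P617), where 5.66% to 10.3% of all genes had such a p-value. That number was 3 without P617 and P1541, 2 with the epithelial covariate, and 1 with DESeq2, with the smooth muscle covariate and without P617, P1541 and NP638 (10.2% of all genes). Of all genes, limma called 0, DESeq2 201, and limma 17 without P617 and P1541 and 128 with the epithelial covariate. Leaving out 1 cow gave 0 to 171 calls, the 171 being without P904. The cause of these changes was not tested. No paired analysis was possible because the cows of the groups share no replicate number. SLC2A5 and SLC5A1 had fewer than 5 counts in at least 1 cow and were not tested where 5 in every cow was required. Depth limits SLC5A11 at 0 to 10 reads per cow, SLC2A5 in P617 at 1 read, and SLC5A1 in P617, P1541 and NP2810 at 3, 5 and 7 reads.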

Other observations

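SLC2A2, which encodes GLUT2, the glucose carrier of liver, pancreas and intestine, was read in P617 at 33.9 normalized counts and in NP856 at 1.08, and was listed at 0 in the other 9 cows. It was singled out after its values had been seen. SLC37A4, which carries glucose 6-phosphate into the endoplasmic reticulum, had 312 normalized counts in P617 and 804 to 2979 in the other cows. SLC5A10 had 1.13 normalized counts in P617 and 20.3 to 30.3 in the other cows, and SLC2A11 had 6.78 in P617 and 17.4 to 42.2 in the others. These genes, also singled out after their values had been seen, were not tested for this difference, and P617 is the cow with the lowest epithelial markers. In limma, log2 fold changes with all cows and without P617 and P1541 were -0.27 and -0.75 for SLC37A4. They were 0.81 and 0.21 for SLC5A10, and 0.34 and -0.22 for SLC2A11.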
